A study of Homo sapiens with 4 samples.

Results

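The data described here are the 5 genes AKT1, PDPK1, PIK3CG, STK11 and TSC1, found by the name the array files give to each spot. They account for 10 of the 3786 gene spots and 5 of the 1843 genes measured, with 1 probe printed as 2 spots for each. The cells were MDA-MB-231, an established human line of triple-negative breast adenocarcinoma, and all were grown in serum-supplemented RPMI medium. The control cultures received medium without the protein (untreated, 2 cultures), and the treated cultures received recombinant human LRG1 (rhLRG1), the secreted leucine-rich alpha-2-glycoprotein, at 100 ng/mL for 24 h (2 cultures). Both conditions carry the numbers 2 and 3, and the cultures of one number shared a 2-colour cancer array, untreated in the ALEXA 555 channel and rhLRG1 in the ALEXA 647 channel on both arrays. As the dyes were not swapped, dye and treatment cannot be told apart in any ratio below.

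The genes belong to a cascade that links growth factor receptors to cell growth. PI3K enzymes make the membrane lipid PIP3, which brings the kinases PDPK1 and AKT1 to the membrane, where PDPK1 phosphorylates AKT1. AKT1 phosphorylates and inhibits the complex of TSC1 and TSC2, which otherwise keeps the growth kinase mTOR inactive, and STK11 (LKB1) activates AMPK, a kinase that acts through the same complex. AKT1, PDPK1 and PIK3CG are therefore called activating here, and STK11 and TSC1 restraining. The cascade works largely through phosphorylation, and these arrays measured transcripts alone.

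On the normalized scale, transcripts of PDPK1 were lower and those of STK11 higher in rhLRG1-treated cells, by mean log2 ratios of -0.25 (SE 0.048) and 0.24 (SE 0.057) over 2 arrays, which correspond to folds of 0.842 and 1.18. AKT1 stood at -0.17 (SE 0.055), PIK3CG at 0.19 (SE 0.048) and TSC1 at 0.11 (SE 0.050), and these 3 did not pass the replicated test after adjustment. With the background model of the main processing, PDPK1 and STK11 passed it only once 2 faulty spots of the array had been left out. That choice was made after the data had been seen, and neither gene passed in the fit as first designed. None of the 5 reached the Z ratio of 1.5 in size that the methods set as threshold. The sizes of the log2 ratios depended on the offset of 50 units added to each channel in background correction. With an offset of 0, PDPK1 stood at -0.45 and STK11 at 0.44. AKT1 then stood at -0.21, PIK3CG at 0.27 and TSC1 at 0.38. Each ratio is relative to spots of the same brightness on its array. Before that adjustment every one of the 10 spots read lower in the rhLRG1 channel than in the untreated channel on both arrays, and the array as a whole did too, with a median log2 ratio of -0.42 on replicate 2 and -0.48 on replicate 3.

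Across the array, foreground was a median of 11.8 and 8.71 times its background in the untreated samples of replicates 2 and 3, and 5.69 and 4.57 times in the rhLRG1 samples. Of the genes listed as expressed by this line, 5 of 8 were on the array and all 5 were above background, but so were ERBB2 and PGR, the receptors its class lacks that were measured, and 3 of 4 leukocyte genes. A signal above background was therefore not taken here to show that a gene was expressed, and the markers could not check the labelled cell type. Whether the transcripts of ERBB2, PGR and the leukocyte genes were present was not tested.

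All 5 genes gave dim spots. AKT1 was brighter than 21.6% of the gene probes, PIK3CG than 27.8%, STK11 than 16.1%, TSC1 than 5.66% and PDPK1 than 3.39%. Over the 20 readings of these spots the local background lay between 42.0 and 51.7 scanner units in the untreated channel and between 69.1 and 73.4 in the rhLRG1 channel. The untreated foreground exceeded it by 68.2 to 248 units and the rhLRG1 foreground by 10.8 to 181 units. After subtraction of the background, the rhLRG1 signal was between 0.150 and 0.766 of the untreated signal, below it in all 20 readings.

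**Figure D1:**
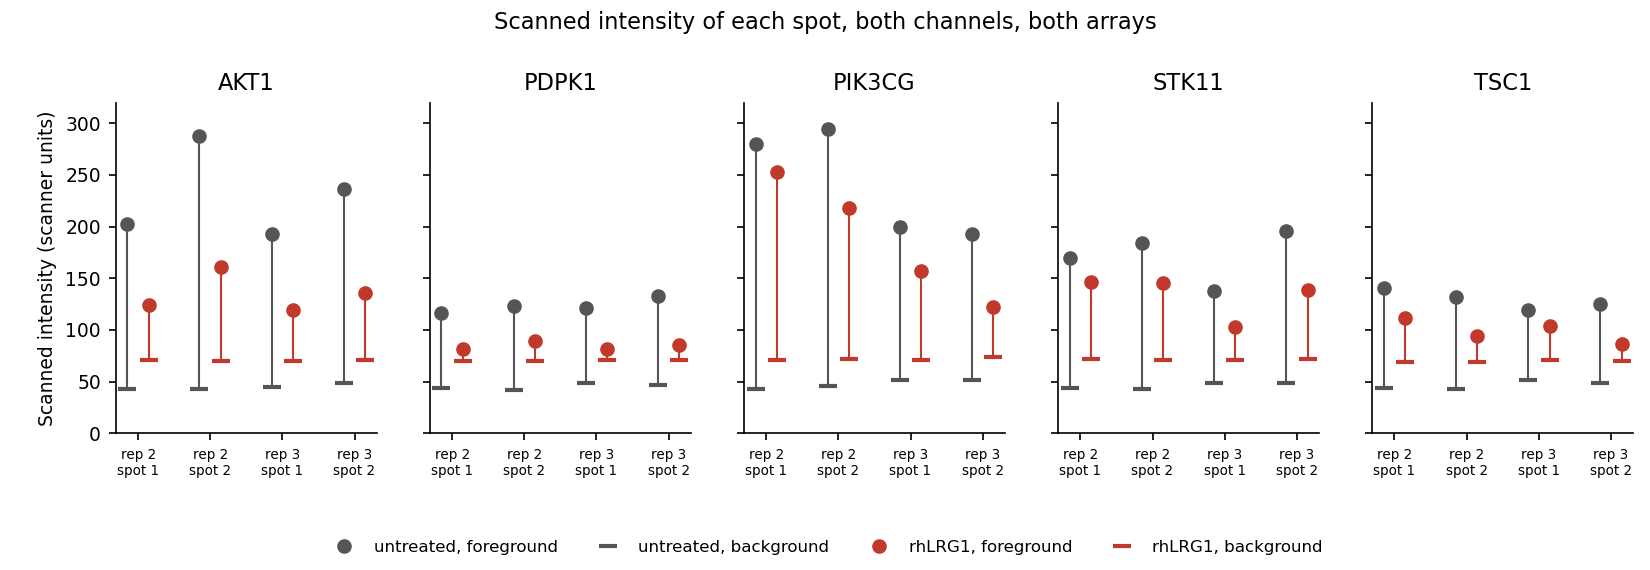
Scanned intensity in scanner units of the 2 spots of each gene on the arrays of replicates 2 and 3, with a circle for the foreground and a dash for the local background, grey for untreated and red for rhLRG1. The rhLRG1 circle lies below the untreated circle for every spot, while the rhLRG1 background lies above the untreated one. The smallest rise above the rhLRG1 background belongs to a spot of PDPK1.

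PIK3CG encodes p110 gamma, the catalytic subunit of a PI3K best known from leukocytes, where it acts downstream of G protein-coupled receptors. Its first spot read 280 units in untreated and 252 in rhLRG1-treated cells of replicate 2, and 199 and 157 on replicate 3. Its second spot read 294 and 218 on replicate 2, and 192 and 123 on replicate 3. Both channels were thus dimmer on replicate 3, and rhLRG1 lay below untreated each time.

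After normalization the first spot of PIK3CG had a log2 ratio of 0.33 on replicate 2 and 0.34 on replicate 3, and the second spot 0.059 and 0.025. All 4 values lay above 0, and the gap between the spots recurred on both arrays. Averaged over spots, PIK3CG stood at 0.20 and 0.18, the mean of 0.19 having a 95% interval of 0.066 to 0.31. In limma, a linear model with variances moderated over all probes, its Benjamini-Hochberg adjusted p was 0.0504, just outside the threshold of 0.05, and its Z ratio was 0.404.

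PDPK1 encodes the kinase PDK1, which phosphorylates AKT and other kinases of the AGC family. Its first spot read 116 units in untreated and 81.9 in rhLRG1-treated cells of replicate 2, and 121 and 81.3 on replicate 3. Its second spot read 123 and 89.2 on replicate 2, and 133 and 85.3 on replicate 3. In the rhLRG1 channel these foregrounds stood only 10.8 to 19.6 units above the local background, which is 5.03 to 9.34 SD of that background, so that a few units decide the ratio.

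The normalized log2 ratio of PDPK1 was -0.33 and -0.27 at the first spot and -0.16 and -0.23 at the second, on replicates 2 and 3. All 4 values lay below 0, and the array means of -0.24 and -0.25 differed by 0.0081. As normalized log2 channels, the untreated samples stood at 6.60 and 6.60 and the rhLRG1 samples at 6.35 and 6.34, without overlap between the conditions. The mean of -0.25 had a 95% interval of -0.37 to -0.12 and an adjusted p of 0.0267 by limma, and the Z ratio was -0.534, which turned to 0.063 with no background correction and to -2.18 with plain subtraction. The human genome holds a near-identical copy of PDPK1, and the probe's sequence was not used here, so which of the copies gave this signal is uncertain.

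AKT1 encodes a serine/threonine kinase that carries PI3K signals to survival, metabolism and growth. Its first spot read 203 units in untreated and 124 in rhLRG1-treated cells of replicate 2, and 193 and 119 on replicate 3. Its second spot read 288 and 161 on replicate 2, and 236 and 136 on replicate 3. The second spot was the brighter one in both channels on both arrays.

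At the first spot the normalized log2 ratio of AKT1 was -0.14 on replicate 2 and -0.042 on replicate 3, and at the second -0.32 and -0.17. All 4 values lay below 0, with the second spot lower on each array. The array means were -0.23 and -0.11, and their mean of -0.17 had a 95% interval of -0.31 to -0.027. The unadjusted p was 0.0285 and the adjusted p 0.0917 by limma, so AKT1 did not pass. Its Z ratio of -1.20 was the largest in size of the 5.

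STK11 encodes LKB1, a tumour suppressor kinase that activates AMPK. Its first spot read 169 units in untreated and 146 in rhLRG1-treated cells of replicate 2, and 138 and 102 on replicate 3. Its second spot read 184 and 145 on replicate 2, and 196 and 138 on replicate 3. The first spot was dimmer on replicate 3 in both channels, the second in the rhLRG1 channel alone.

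The normalized log2 ratio of STK11 was 0.39 and 0.18 at the first spot, and 0.24 and 0.16 at the second, on replicates 2 and 3. All 4 lay above 0, and both spots were higher on replicate 2. The array means were 0.31 and 0.17, a gap of 0.14 between the arrays, larger than that of PDPK1. As normalized log2 channels, the untreated samples stood at 7.06 and 6.89 and the rhLRG1 samples at 7.37 and 7.06, so that the conditions only just did not overlap, the untreated sample of replicate 2 and the rhLRG1 sample of replicate 3 being equal to 2 decimals. The mean of 0.24 had a 95% interval of 0.095 to 0.39, an adjusted p of 0.0446 by limma and a Z ratio of 0.424.

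TSC1 encodes hamartin, which stabilizes TSC2 in the complex that switches off RHEB, the GTPase above mTOR. Its first spot read 141 units in untreated and 112 in rhLRG1-treated cells of replicate 2, and 119 and 104 on replicate 3. Its second spot read 132 and 94.2 on replicate 2, and 125 and 86.7 on replicate 3. The 2 spots were close in the untreated channel and further apart in the rhLRG1 channel.

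The spots of TSC1 then disagreed in sign. The first had a normalized log2 ratio of 0.22 on replicate 2 and 0.39 on replicate 3, and the second -0.070 and -0.11. Their mean was 0.077 and 0.14 on the arrays and 0.11 over both, with a 95% interval of -0.019 to 0.24, an adjusted p of 0.184 by limma and a Z ratio of 0.370. With the second spot alone TSC1 stood at -0.088 and with the first alone at 0.31 (adjusted p = 0.000466 by limma), so the spot decided its direction. Over all processing alternatives its adjusted p by limma ranged from 0.000100 to 0.9999. The lowest came without normalization, where TSC1 had the opposite sign, at -0.74.

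**Figure D2:**
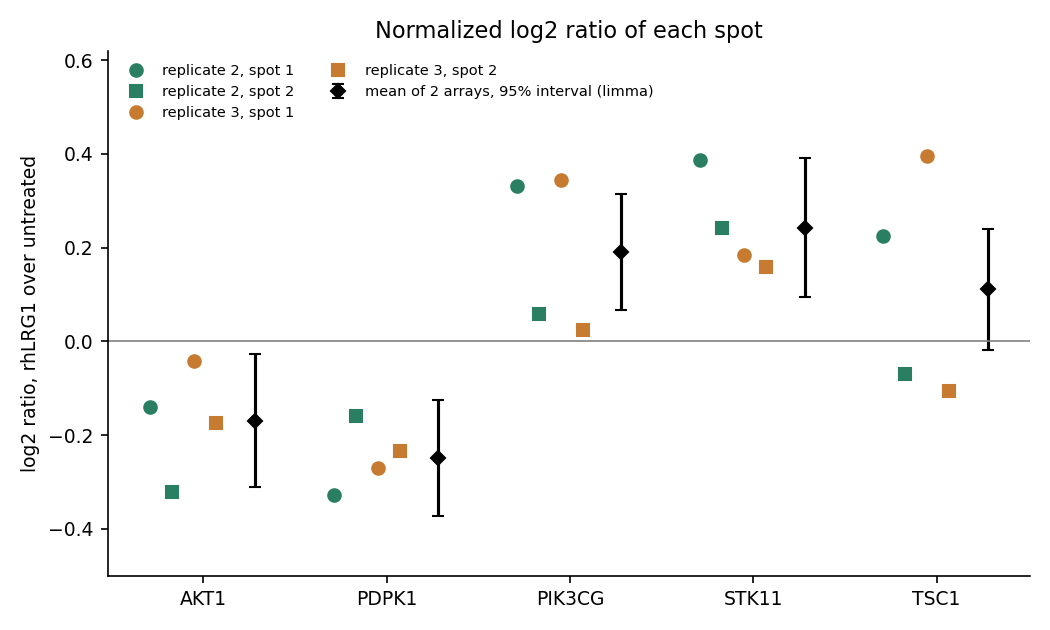
Normalized log2 ratio of rhLRG1 over untreated for each spot, by gene, with circles for the first spot and squares for the second, green for replicate 2 and orange for replicate 3. Black diamonds are means over 2 arrays with limma's 95% interval. All 4 values of AKT1 and of PDPK1 lie below 0 and all 4 of PIK3CG and of STK11 above it, while the spots of TSC1 lie on both sides.

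The gap between the spots of a probe recurred between arrays. In all 5 genes it had the same sign on both, against 64.8% of the 1847 probes with both spots measured. The ratios of the 2 spots differed in sign in 20.2% of these probes on replicate 2 and 23.2% on replicate 3. Spots of 1 sign, as in every gene here but TSC1, were thus the usual case. The gap of TSC1, 0.29 and 0.50, was larger than that of 95.6% of the probes on replicate 2 and 98.97% on replicate 3. That of PIK3CG, 0.27 and 0.32, was larger than that of 94.6% and 95.7%. The gaps of PDPK1 (-0.17 and -0.036) and STK11 (0.14 and 0.025) kept their sign but were small on replicate 3. There they exceeded in size those of only 22.7% and 16.5% of the probes. Across these probes, which share their arrays, the gaps of the 2 arrays had a Pearson r of 0.510 and a Spearman rho of 0.414. The SE is limma's and does not include the spread between spots. It joins the spread between a gene's own arrays (1 degree of freedom) with a variance shared by all probes (3.95 degrees of freedom). The SD of the 2 arrays was 0.0057 for PDPK1 and 0.10 for STK11, where the SE was 0.048 and 0.057.

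By limma 2 of the 5 genes passed an adjusted p of 0.05, 1 lower and 1 higher, where 21.3% of all 1856 gene probes passed, 10.5% higher and 10.8% lower. An unadjusted p under 0.05 was reached by 4 of the 5, against 36.9%. The conditions did not overlap in the channels of 2 of the 5, against 26.5%. By the Z ratio 0 of 5 were called, against 11.7% of all probes in either direction, 4.74% higher and 6.95% lower. On both arrays 3 of 5 ratios were above 0, against 35.6%, and 2 of 5 below 0, against 39.8%. The Z ratio is the difference between the conditions of the mean log10 channel, scaled within each sample, divided by the SD of that difference over all probes, and it contains no spread between replicates.

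In the main processing, which removes background with normexp, the calls of PDPK1 and STK11 rested on a choice made after the data had been seen. On the array of replicate 3, 2 neighbouring spots had a local background above their foreground, up to 5345 units against a median of 48.9 in the untreated channel, and they shifted the background model that normexp fits to the whole array. They were left out of the values given here. With them included, as in the fit first designed and run, 0 of 1856 probes passed by limma (433 at an unadjusted p under 0.05), PDPK1 stood at -0.15 with an adjusted p of 0.291 and STK11 at 0.18 with an adjusted p of 0.254. Treating the 4 samples as unpaired gave 0 calls too (139 unadjusted), with adjusted p values of 0.658 and 0.745. Without normexp both genes passed by limma. For PDPK1 and STK11 the adjusted p was 0.0332 and 0.0333 with no background correction, the 2 spots again left out. It was 0.0102 and 0.0133 with plain subtraction, also without these spots. From the authors' net intensities, which carry their own factor on the rhLRG1 channel, it was 0.0132 and 5.8e-05. A sign permutation of 2 arrays cannot go below a two-sided p of 0.5, so the calls lean on variances borrowed from all probes.

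**Figure D3:**
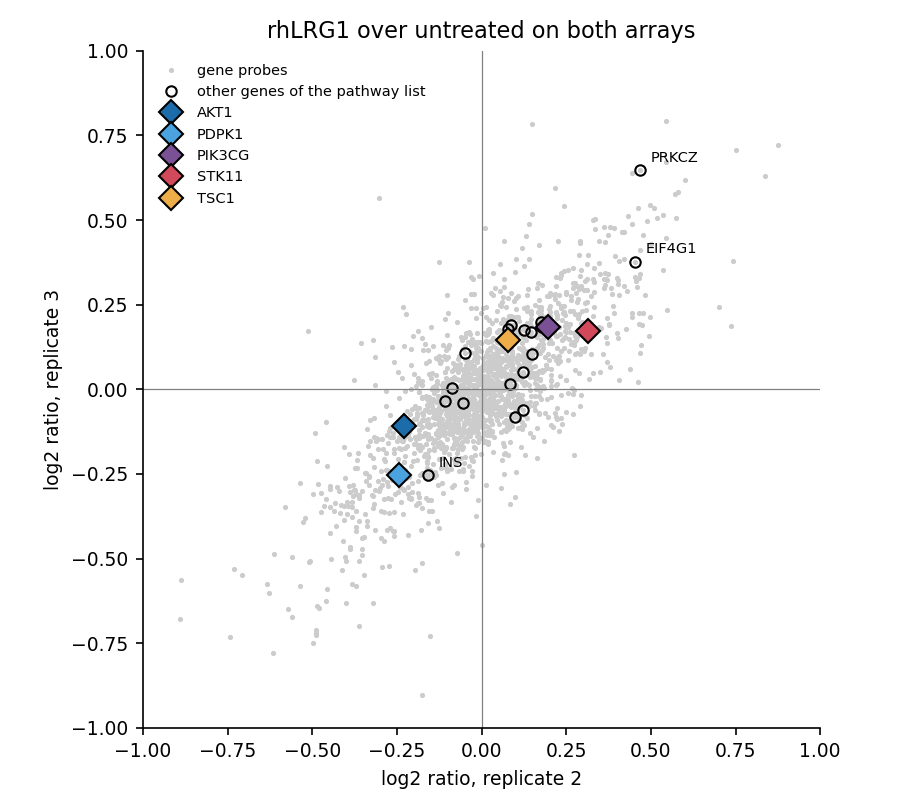
Normalized log2 ratio of rhLRG1 over untreated on replicate 2 against replicate 3 for 1856 gene probes in grey, the 19 other measured genes of the pathway list as open circles and the 5 genes as diamonds. Outside the axes lie 2 probes. AKT1 and PDPK1 sit below 0 on both arrays and PIK3CG, STK11 and TSC1 above 0 on both, all inside the main cloud.

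The sign of PIK3CG, STK11 and TSC1 depended on the adjustment for brightness. Before normalization the ratio depended on brightness on both arrays. With the probes split by brightness into 10 equal groups, the median log2 ratio was -0.92 in group 2 of replicate 2 and -0.018 in the brightest group, and -1.05 and 0.037 on replicate 3. STK11 lay in group 2 on both arrays, with an unnormalized log2 ratio of -0.55 on replicate 2 and -0.77 on replicate 3, which was 0.37 and 0.28 above the median of its group. PIK3CG lay 0.14 and 0.16 above its own, and TSC1 0.049 and 0.15 above. For AKT1 the difference from the median of its group was -0.27 and -0.13, and for PDPK1 -0.12 and -0.18.

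**Figure D4:**
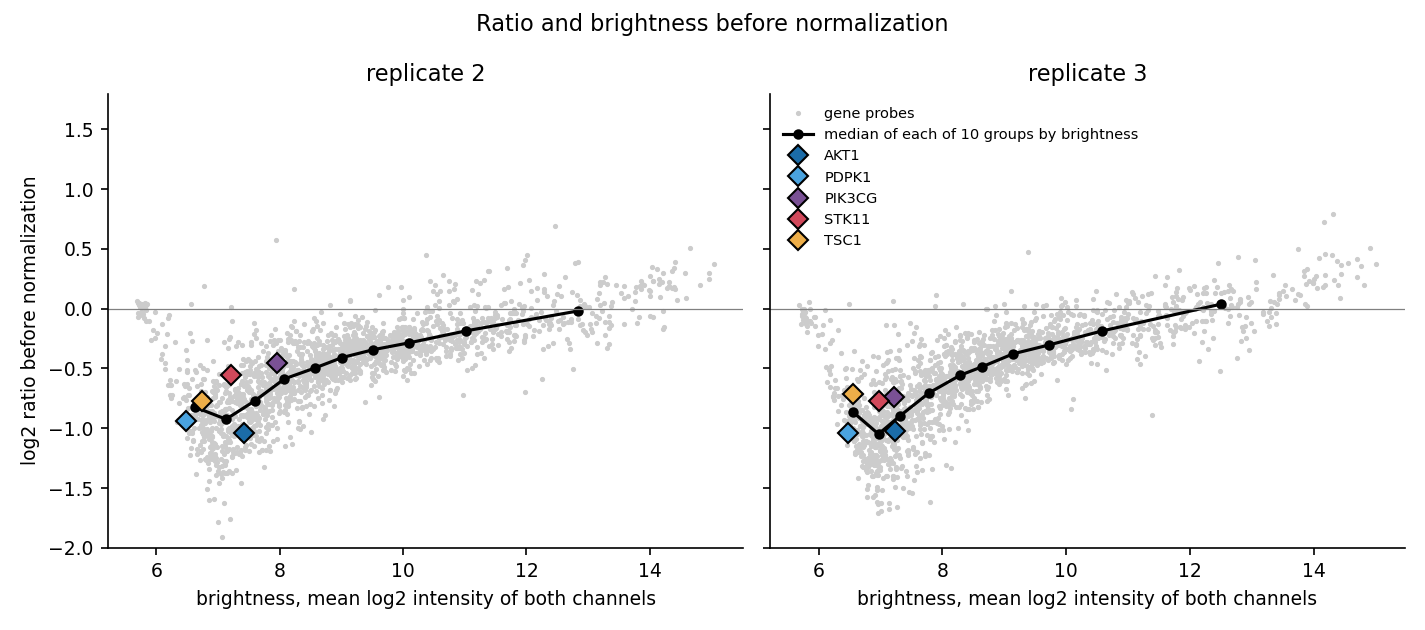
Log2 ratio of rhLRG1 over untreated before normalization against brightness, the mean log2 intensity of both channels, for gene probes in grey on replicate 2 (left) and replicate 3 (right), with the median of each of 10 groups by brightness as a black line. All 5 genes lie below 0 in the dim part, where STK11 sits above the line and AKT1 below it on both arrays.

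With each array only centred on its median, all 5 genes lay below 0, STK11 at -0.22, PIK3CG at -0.15, TSC1 at -0.30, AKT1 at -0.59 and PDPK1 at -0.55. Over the 15 alternatives tried, AKT1 ranged from -1.03 to -0.063 and PDPK1 from -0.99 to -0.15, both below 0 in 15 of 15. PIK3CG and STK11 were above 0 in 13 of 15, and TSC1 in 12 of 15. These counts include the robust variance model, the fit without a replicate block and the filter on dim probes, which left all 5 ratios unchanged. The net intensities deposited by the authors carry their own brightness-dependent factor on the rhLRG1 channel, with medians of 1.42 and 1.51 over the gene spots of replicates 2 and 3. For the spots of PDPK1 it was 4.34 to 5.14 and for those of the 5 genes together 1.75 to 5.14. From those intensities STK11 stood at 0.46 with a Z ratio of 1.68, the only one of the 5 past 1.5 there.

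**Figure D5:**
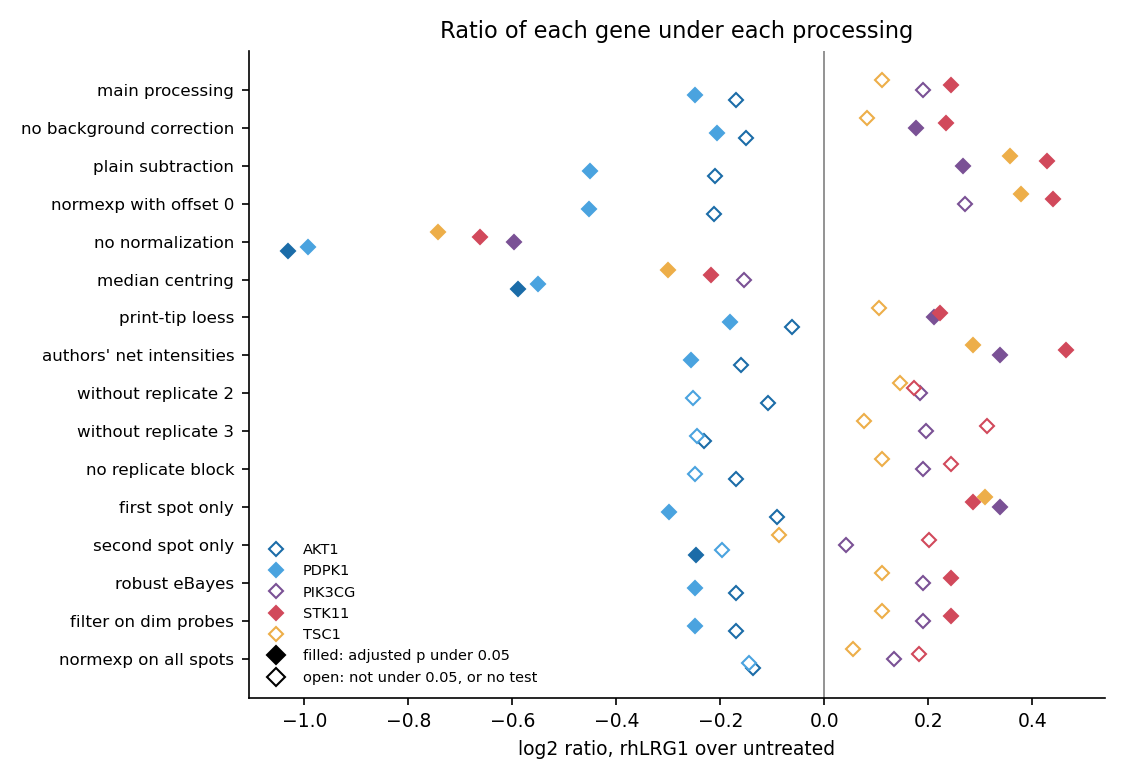
Mean log2 ratio of rhLRG1 over untreated for the 5 genes under the main processing and each alternative, filled where the adjusted p by limma was under 0.05 and open where it was not or no test was possible. AKT1 and PDPK1 lie left of 0 throughout, and the other 3 cross to the left with median centring or no normalization, TSC1 also with the second spot only.

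Set side by side, the activating genes had a mean log2 ratio of -0.076 and the restraining genes 0.18. The difference, restraining minus activating, was 0.29 on replicate 2 and 0.22 on replicate 3, with a mean of 0.25 (SD 0.051, n = 2 arrays) and no test, as the genes were chosen with earlier results known. It lay above 0 under every alternative tried, between 0.17 and 0.54, but some alternatives could not move it. The fit without a replicate block, the robust variance model and the filter on dim probes left it at 0.25. No normalization and median centring gave the same 0.17, as a shift of a whole array cancels in a difference. The sides did not divide cleanly, since PIK3CG stood between STK11 and TSC1.

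Of 83 genes listed for the wider pathway, 24 were on the array. By limma 4 of 24 passed, the 2 above with PRKCZ and EIF4G1, both higher, against 21.3% of all probes. By the Z ratio 2 were called higher and 0 lower, against 4.74% and 6.95%. A ratio above 0 was found in 18 of 24, with a median of 0.12 against -0.0070 over all probes, but in 11 of 24 with median centring. The 16 activating genes had a median of 0.088 and the 8 restraining genes 0.12, and 11 of 16 and 7 of 8 lay above 0, against 48.1% of all probes. With median centring the medians were -0.13 and 0.10, with 6 of 16 and 5 of 8 above 0, so the sign of the activating median depended on the normalization.

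Around AKT1, the kinase AKT2 of the same family stood at -0.042 (SE 0.052, adjusted p = 0.602 by limma). PIK3CA, which encodes the PI3K subunit p110 alpha often mutated in breast cancer, had 0.100 on replicate 2 and -0.083 on replicate 3, arrays of opposite sign where those of PIK3CG agreed. Beside TSC1, its partner TSC2 stood at 0.088 (SE 0.050, adjusted p = 0.275 by limma).

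Among ligands, IGF1 had a log2 ratio of 0.19 and the insulin gene INS -0.21, with adjusted p values of 0.0525 and 0.0519 by limma. Downstream of mTOR, EIF4G1, a scaffold of translation initiation, was higher at 0.42 (SE 0.051, adjusted p = 0.0135 by limma), but 0.075 with median centring, while MTOR itself stood at 0.030. RPS6, a ribosomal protein phosphorylated on this pathway, was called higher by a Z ratio of 2.83. It had a log2 ratio of 0.16 and an adjusted p of 0.0784 by limma. Its probe was the dimmest of the measured pathway genes, with a mean log2 brightness of 5.98 against 6.47 for PDPK1. The Z ratio of RPS6 fell short of 1.5 from the net intensities (0.9996), with loess channels (0.934) and with an offset of 0 (1.24). Its log2 ratio rose to 0.57 with plain subtraction and 0.68 with an offset of 0 and passed limma there (adjusted p = 0.0142 and 0.0252). Over its alternatives the adjusted p by limma ranged from 0.0118 to 0.861, the lowest without normalization, where RPS6 stood at -0.23. Among the AGC kinases, PRKCZ, an atypical protein kinase C, was higher at 0.56 (SE 0.063, adjusted p = 0.0131 by limma, Z ratio 2.15), with spots that differed more than 4-fold in brightness on replicate 2, and PRKCE stood at 0.049. Of the proteins that AKT inhibits, the apoptosis regulator BAD had the highest ratio, 0.19 (adjusted p = 0.0520 by limma), and the transcription factor FOXO1 the lowest, -0.072.

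Genes whose pair of ratios lay nearest to each of the 5 were found by Euclidean distance over the 2 arrays, as a description. They included PBOV1 and IL1RN for AKT1, BCL10 and INA for PDPK1, IL13RA2 for PIK3CG, C9 and NME3 for STK11, and RPL26 and RAB8A for TSC1, at distances of 0.0030 to 0.011 log2 units.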

How the data were processed

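Each array file deposited by the authors gives the scanned intensity, the background near the spot and its SD, and a net intensity per spot and channel. In the untreated channel the net intensity is the difference of the first 2, and in the rhLRG1 channel that difference was also scaled by a brightness-dependent factor. Ratio columns of the authors were not used. The methods name genArise and a Z-score, and the submitters' processing notes R 4.2.2. No genome build is given in the sources used here, and probe sequences were not analysed.

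In R 4.3.3 with limma 3.58.1, background was removed from the scanned intensities by normexp (offset 50), and log2 ratios were normalized by loess on each array, 54 control spots having weight 0. Spots of a probe were averaged, and limma tested the ratios of 2 arrays over 1856 gene probes with Benjamini-Hochberg adjustment. The Z ratio used log10 background-corrected channels. The design as written fitted normexp to all spots, and that fit was run first. Leaving out 2 spots of replicate 3 whose background exceeded the foreground was decided after seeing the data, and it moved limma's calls from 0 to 396. A RefSeq table (GRCh38.p14) served for gene names alone.

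The number pairs 2 samples because they shared an array. Before normalization, deviations from the group means had a correlation of 0.957 between samples of one number. That value includes the difference in brightness between the arrays, so it cannot show a pairing of the cultures themselves. Per the series, replicates were grown independently. Median foregrounds were 508 and 425 in the untreated and 397 and 319 in the rhLRG1 samples, and 2 arrays limit the precision.

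The members, the pathway list and the marker lists were chosen with earlier results of these data known. Named are the 5 genes, the pathway genes with a Z ratio beyond 1.5, the highest and lowest ratio in each role group and the 2 genes nearest to each of the 5. Some genes that this rule takes are not reported here. Alternatives were other background corrections and normalizations, the net intensities, single spots, each replicate left out, no replicate block, a robust variance model, a filter on dim probes and a Z ratio from loess channels. The main processing, with its limma and Z ratio calls, was tested on simulated data. Their noise between arrays was taken from the difference of the real arrays but scaled below the spread of a single array. Noise between spots was a fixed value. The simulated dye trend fell with brightness, whereas the real unnormalized ratio rose from the dim groups to the brightest. The simulation therefore cannot show how reliable the calls are for these dim spots. The alternatives and the other summaries were not.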

Additional observations from a re-analysis of the deposited data

How the results depend on the processing

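Of 65 tested log2 ratios of the 5 genes, 13 alternatives each, 40 kept their direction and their side of limma's threshold, 12 passed where they had not, 6 no longer passed and 7 turned their sign, and the cause was not tested. The other 10, with a replicate left out, have no test and kept their direction. Among the tested alternatives, the filter on dim probes changed neither the ratios nor the adjusted p values of the 5 genes. The robust variance model and the fit without a replicate block left their ratios unchanged. Without normalization AKT1 stood at -1.03, PIK3CG at -0.60, STK11 at -0.66, TSC1 at -0.74, BAD at -0.51, EIF4G1 at -0.37, IGF1 at -0.22, MTOR at -0.27, PIK3CA at -0.63, PRKCE at -0.76, PRKCZ at -0.043, RPS6 at -0.23 and TSC2 at -0.25. Then 0 of the 5 genes and 2 of the pathway list lay above 0, 1567 probes passed limma (1579 unadjusted), and the restraining minus activating difference was 0.17. With median centring AKT1 stood at -0.59, PIK3CG at -0.15, STK11 at -0.22, TSC1 at -0.30, BAD at -0.068, FOXO1 at 0.012, PIK3CA at -0.18 and PRKCE at -0.32. Above 0 lay 0 of the 5 genes and 11 of the list, 1122 probes passed (1230 unadjusted), and the difference was 0.17. From the net intensities PIK3CG (0.34) and TSC1 (0.29) passed limma, STK11 had a Z ratio of 1.68, PIK3CA turned to -0.045, 603 probes passed, the Z ratio called 1 of the 5 genes and 4 of the list, and the difference was 0.40.

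Plain subtraction gave PDPK1 a Z ratio of -2.18 and an offset of 0 one of -2.11, in each case the 1 call among the 5 genes, with 54 and 41 probes called higher and differences of 0.52 and 0.54. Below the threshold, Z ratios changed sign for PDPK1 (0.063 with no background correction), for TSC1 (-0.30 with plain subtraction, -0.35 with an offset of 0 and -0.13 with the second spot) and for PIK3CG (-0.17 with the second spot). The call of RPS6 was lost with an offset of 0 (1.24), the net intensities (0.9996) and loess channels (0.934). PIK3CG passed limma with plain subtraction (0.27), no background correction (0.18) and print-tip loess (0.21), and TSC1 with plain subtraction (0.36) and an offset of 0 (0.38). Print-tip loess left a difference of 0.17 and turned PIK3CA to -0.048. With the first spot only PIK3CG (0.34) and TSC1 (0.31) passed, AKT2 stood at 0.010 and the difference was 0.31. With the second spot only AKT1 passed (-0.25), PDPK1 (-0.20, adjusted p = 0.0641) and STK11 (0.20, adjusted p = 0.0632) did not pass limma, TSC1 turned to -0.088, MTOR to -0.015 and PIK3CA to -0.068, and the difference was 0.19.

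Without the replicate block, 0 probes passed limma (139 unadjusted), and PDPK1 at -0.25 (adjusted p = 0.658) and STK11 at 0.24 (adjusted p = 0.745) lost their calls. Over all alternatives the adjusted p by limma ranged from 4.8e-05 to 0.658 for PDPK1 and from 5.8e-05 to 0.745 for STK11. With normexp fitted on all spots, which is the fit as first designed and run before the 2 spots were left out, 0 probes passed (433 unadjusted), PDPK1 stood at -0.15 and STK11 at 0.18, and the difference was 0.17. With a replicate left out, AKT2 ranged from -0.088 to 0.0046, MTOR from -0.048 to 0.11, PIK3CA from -0.083 to 0.100 and the difference from 0.22 to 0.29. In the rhLRG1 channel the faintest reading stood 10.8 units above background for PDPK1 and 16.6 units for TSC1. Whether dimness accounts for the changes between alternatives was not tested.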
